A study of Mus musculus with 16 samples.

Results

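The hippocampus of mice that carried both the PS19 tau transgene and the Ch25h knockout was set against that of wild-type mice, to measure how far the combined genotype stayed from normal hippocampus. The comparison used 8 of the 16 RNA-seq libraries of the study: 4 of the combined genotype (TCKO, replicates 2, 3, 4 and 5) and 4 wild-type libraries (WT, replicates 1, 2, 4 and 5), chosen by their genotype labels alone. TCKO mice expressed human 1N4R MAPT with the P301S mutation under the PrP promoter, as PS19 mice (T) do, and lacked Ch25h, as the knockout mice (CKO) do. The other 8 libraries, 4 of T and 4 of CKO, served as reference points and for the estimate of spread. All mice were female, were labelled 40 weeks old (9.5 months in the treatment text) and were perfused with PBS before the right hippocampus was frozen. RNA was made into libraries with an oligo-dT low-input kit. TCKO differs from WT by the transgene and by the loss of Ch25h at once, and within this comparison their parts cannot be told apart. Nothing in the labels ties each library to a mouse of its own, and the spread behind every p-value is that among the sequenced libraries, which may be technical.

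Ch25h encodes cholesterol 25-hydroxylase, an enzyme of activated macrophages and microglia that turns cholesterol into 25-hydroxycholesterol, an oxysterol that dampens cholesterol synthesis and acts on immune cells. P301S tau aggregates in neurons of PS19 mice, and microglia and astrocytes around them change state. Reactive microglia are known for the disease-associated programme, with genes such as Cst7 and Clec7a, for complement C1q and for interferon-stimulated genes.

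Depth was 28878584 to 34348225 assigned reads in WT and 24057164 to 31359240 in TCKO. TCKO replicate 3 alone reached the WT range, and TCKO replicates 2, 4 and 5 lay below every WT library. The hippocampal markers were present: Prox1 of dentate granule cells averaged 47.0 CPM (counts per 1000000 reads, scaled for library composition) in WT and 56.6 CPM in TCKO, and Fibcd1 of CA1 neurons 96.5 and 79.4 CPM. Reads from mitochondrially encoded genes made up 8.54 to 9.79% of WT libraries and 7.56 to 7.93% of TCKO libraries, so these ranges did not meet. WT replicate 1 stood apart in choroid plexus genes: the mean log2 level of 15 such genes, relative to the WT mean, was 3.56 there and between -2.23 and 0.76 in the other 7 WT and TCKO libraries. The meningeal list also separated the groups, and its values are given with the genes that fell.

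The targeted genes matched the labels. Ch25h (chromosome 19) had 18, 25, 20 and 40 reads in WT replicates 1, 2, 4 and 5 and 0, 1, 1 and 0 reads in TCKO replicates 2, 3, 4 and 5. This is a WT to TCKO ratio of 45.7 with a 95% counting interval of 12.3 to 383 (edgeR quasi-likelihood test, Benjamini-Hochberg adjusted p = 0.00262). The tau gene Mapt read 328.7, 357.4, 359.7 and 342.3 CPM in WT and 1138, 812.3, 943 and 1052 CPM in TCKO. Every TCKO library lay above every WT library, with a log2 fold change of 1.51 ± 0.11 (SE, n = 4 and 4, edgeR adjusted p = 2.27e-06). Prnp, the prion protein gene whose promoter drives the transgene, read 813.1, 780.5, 819.7 and 972.1 CPM in WT against 2475, 1766, 2312 and 2312 CPM in TCKO, a log2 fold change of 1.39 ± 0.13 (edgeR adjusted p = 6.6e-05). Reads of the human transgene and of its promoter construct can fall on the mouse Mapt and Prnp models, so these levels may hold both. Mapt was also higher in TCKO than in T by 0.36 on the log2 scale (edgeR adjusted p = 0.0321), whereas the same difference for Prnp was 0.21 (adjusted p = 0.287).

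Few genes separated TCKO from WT. Of 18565 genes tested, 56 passed an edgeR adjusted p of 0.05 (0.302%), 34 of them higher in TCKO (0.183%) and 22 lower (0.119%). A further reading of scale is that 2818 genes had an unadjusted p under 0.05. Among the 34 rises were microglial and leukocyte genes (19 of 34), and among the 22 falls were short mitochondrial, ribosomal and pseudogene transcripts (13 of 22), in groups drawn up after the calls were seen. All 56 genes had 4 TCKO libraries on one side of the 4 WT libraries, as did 7.47% of all genes tested. With the same WT libraries and the same fit, 24.2% of genes passed in T against WT and 0.0108% in CKO against WT, the latter being Ch25h and Golga7b.

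The number of calls rested on single libraries. Leaving out TCKO replicate 2 or WT replicate 5 left 6 calls each, and leaving out WT replicate 1 left 9. Leaving out TCKO replicate 3 left 21, WT replicate 2 left 25 and WT replicate 4 left 30, while 67 and 63 genes passed without TCKO replicate 4 or 5. Ch25h, Gbp2b, Mapt, Prnp, mt-Atp8 and mt-Nd4l passed in each of these 8 fits, and Nudc, Snx15, Mir6236, Tsc22d3 and Gm5829 passed in none of them. DESeq2 called 499 genes and limma voom 25, so the calls are best read together with the library values given for each gene.

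**Figure D1:**
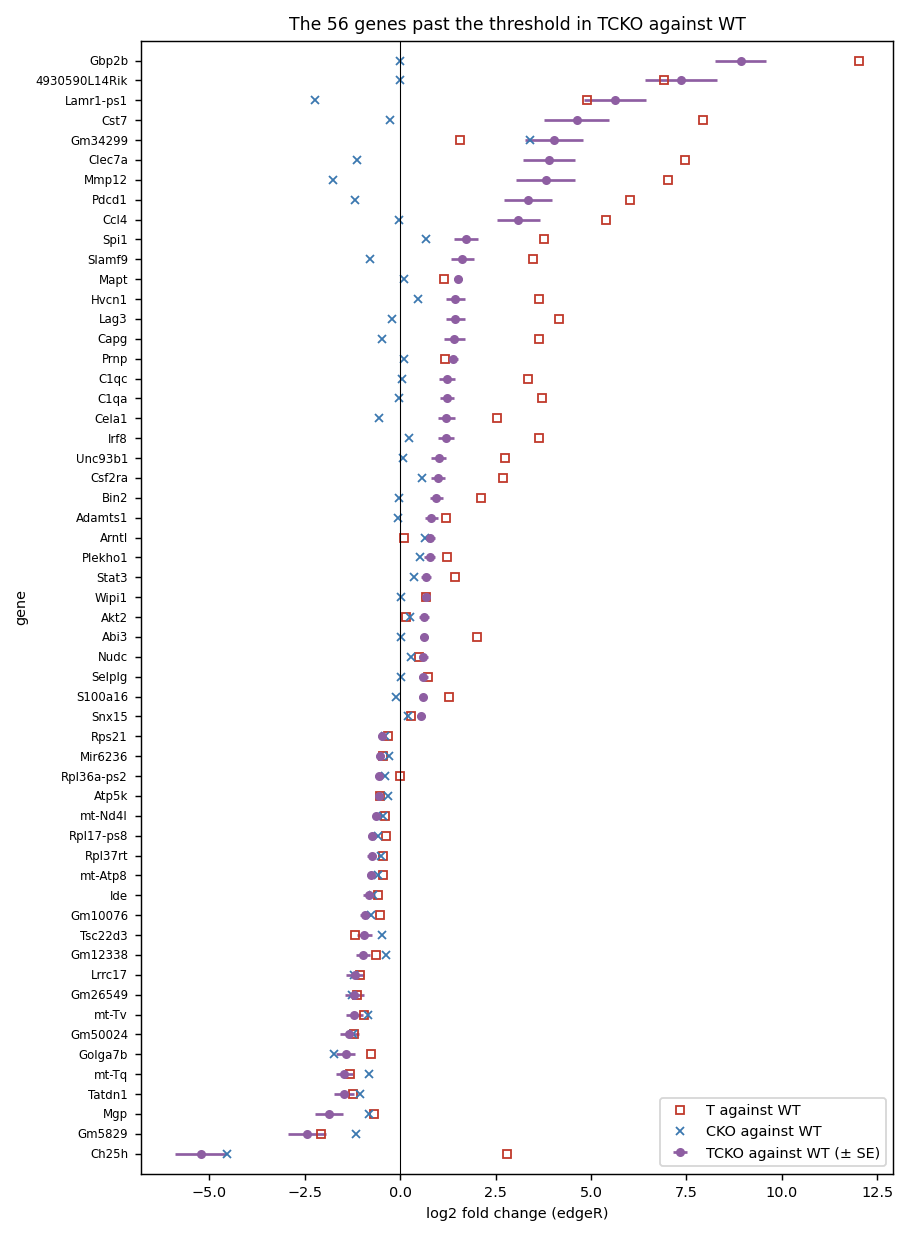
Log2 fold change (horizontal axis, bars ± 1 SE) of the 56 genes that passed in TCKO against WT, with the change of the same genes in T against WT and CKO against WT, which share the 4 WT libraries (the fitted values of genes at 0 reads in WT depend on the fit and are no bounds). The 34 rises have a median of 1.22 in TCKO and 2.73 in T, and the 22 falls one of -0.95 in TCKO, -0.61 in T and -0.74 in CKO.

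Measured directly between TCKO and T, 22 of the 34 rises were lower in TCKO (8.05% of all genes were), 8 did not pass and 4 (Mapt, Arntl, Akt2 and Gm34299) were higher than in T (4.81% of all genes were). The 8 that did not pass were Prnp, Lamr1-ps1, 4930590L14Rik, Adamts1, Wipi1, Selplg, Nudc and Snx15. Among the 22 falls, 3 (Ch25h, Mgp and Rpl36a-ps2) were lower still than in T, none was higher by the edgeR test and 19 did not pass.

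Over the whole transcriptome the TCKO libraries lay near WT. The root mean square log2 CPM distance averaged 0.776 between TCKO and WT libraries and 0.738 within the 2 groups. The difference of 0.038 did not pass a one-sided exact permutation test over the genotype labels of the 8 libraries (p = 0.0571, the smallest possible being 0.0286), and it was 0.006 without WT replicate 5, 0.011 without WT replicate 1 and 0.062 without WT replicate 2. Mean distance to the WT libraries was 0.744 ± 0.030 for CKO, 0.776 ± 0.041 for TCKO and 0.992 ± 0.086 for T (SD, n = 4 libraries each), against 0.726 ± 0.028 among the WT libraries themselves.

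**Figure D2:**
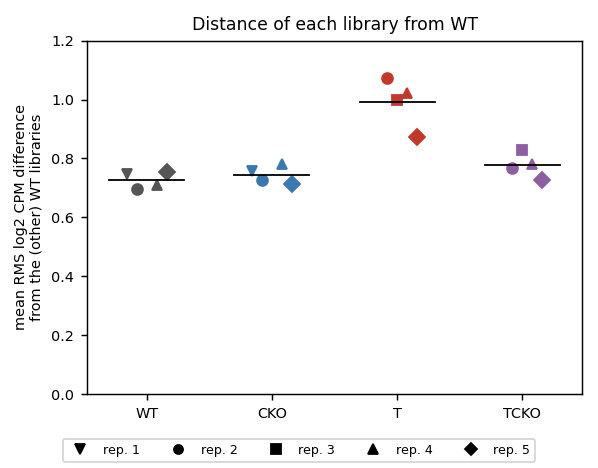
Mean root mean square log2 CPM distance of each library to the WT libraries (vertical axis), by genotype, 1 point per library. The 4 T libraries sit above all others, between 0.872 and 1.074, and the TCKO libraries between 0.728 and 0.828.

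A set of genes was also chosen from T and CKO alone, after these data had been seen. T differs from CKO by the transgene and by intact Ch25h at once, so the set can hold effects of both. T exceeded CKO at least 2-fold in 1629 genes (edgeR adjusted p under 0.05, Ch25h, Mapt and Prnp left out), with a median log2 fold change of 1.84. In TCKO against WT these genes had a median log2 fold change of 0.40 (quartiles 0.10 and 0.75), and 80.2% were above 0, against 52.3% of all genes. Of the 1629, 24 (1.47%, against 0.183% of all genes) passed as higher in TCKO than WT and 0 as lower. Against T, whose values chose the set, 1041 were lower in TCKO (8.05% of all genes were), a count that is given as a description.

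TCKO libraries differed in this set. Its median level relative to WT was 0.45 in TCKO replicate 2, 0.67 in replicate 3, 0.25 in replicate 4 and 0.06 in replicate 5, and the WT libraries lay between -0.23 and 0.17. TCKO replicate 5 therefore fell inside the WT range and the other 3 above it. The 252 genes at least 2-fold lower in T than CKO had a median of -1.32 there and -0.12 in TCKO against WT, with 0 passing by edgeR. That value had no stable direction: it was 0.01 without WT replicate 1, -0.06 without TCKO replicate 3 and -0.19 without WT replicate 2.

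Among the rises, 19 genes known from microglia and other leukocytes were grouped after the calls were seen, and no enrichment was tested. The 19 genes had log2 fold changes from 0.61 upward with a median of 1.44, against 3.64 in T and -0.03 in CKO. Of these genes, 18 were lower in TCKO than in T, the exception being Selplg. The highest TCKO library was replicate 2 for 9 of them and replicate 3 for 8, and replicate 5 was the lowest TCKO library for 12. In bulk tissue a change in the number of microglia and a change in RNA per microglia cannot be told apart. The calls of 18 of the 19 ended when WT replicate 1, WT replicate 5 or TCKO replicate 2 was left out, Gbp2b alone passing there, and 18, 17, 9, 6 and 5 passed without TCKO replicate 5, TCKO replicate 4, WT replicate 2, WT replicate 4 and TCKO replicate 3. Gbp2b is counted among the 19, although it read 0 CPM in every WT and CKO library. Whether its reads came from microglia was not tested.

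Cst7, which encodes cystatin F, an inhibitor of lysosomal cysteine proteases, read 0.23, 0.30, 0.43 and 0.18 CPM in WT and 19.3, 7.22, 1.52 and 0.55 CPM in TCKO. TCKO replicate 2 lay far above WT and replicate 5 just above it. The log2 fold change was 4.63 ± 0.85 (edgeR adjusted p = 0.0304), and the 4 T libraries read 57.4 to 89.0 CPM. Clec7a, the beta-glucan receptor Dectin-1, which the annotation used here lists as a polymorphic pseudogene, split the same way. It read 0.42, 1.04, 0.61 and 0.18 CPM in WT and 17.3, 13.7, 1.74 and 1.68 CPM in TCKO (log2 fold change 3.9 ± 0.69, edgeR adjusted p = 0.0255). Mmp12, macrophage elastase, read 0 to 0.09 CPM in WT and 1.61, 0.89, 0.41 and 0.12 CPM in TCKO (3.81 ± 0.78, adjusted p = 0.049).

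Surface receptors that restrain lymphocytes, also made by reactive microglia, were among the rises. Pdcd1, which encodes PD-1, read 0.16, 0.27, 0.25 and 0.07 CPM in WT and 3.25, 2.28, 2.08 and 0.35 CPM in TCKO, a log2 fold change of 3.36 ± 0.63 (edgeR adjusted p = 0.0341). Lag3 read 3.78, 3.94, 4.5 and 3.92 CPM in WT and 14.6, 14.8, 8.86 and 5.62 CPM in TCKO, a change of 1.44 ± 0.25 (adjusted p = 0.0225). Both were again highest in TCKO replicates 2 and 3. None of the 15 tested T cell genes passed by edgeR, 0 had an unadjusted p under 0.05, 11 had a positive fold and the median was 0.19. The defining T cell genes Cd3d (0.09 CPM in WT and 0.08 in TCKO) and Cd8a (0.11 and 0.17 CPM) were near 0. The T cell list score was nevertheless 0.54 and 0.87 in TCKO replicates 2 and 3, above the WT range of -0.16 to 0.19, and -0.14 and -0.63 in replicates 4 and 5, and its part in the Pdcd1 and Lag3 results was not tested.

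Transcription factors of the macrophage lineage also rose. Spi1, which encodes PU.1, the factor that defines the lineage, read 0.90, 0.68, 0.86 and 0.39 CPM in WT and 1.48, 3.33, 2.63 and 1.99 CPM in TCKO. Here replicate 2 was the lowest of the TCKO libraries, and the log2 fold change was 1.73 ± 0.32 (edgeR adjusted p = 0.0337). Irf8, a partner of PU.1, read 3.71, 5.04, 4.64 and 4.63 CPM in WT and 13.5, 13.3, 6.56 and 7.76 CPM in TCKO (1.19 ± 0.21, adjusted p = 0.0255). Stat3, a cytokine-responsive factor of reactive astrocytes and microglia, read 22.1, 35.6, 32.7 and 27.6 CPM in WT and 56.8, 47.1, 41.7 and 43.2 CPM in TCKO (0.68 ± 0.14, adjusted p = 0.049). In CKO, Spi1 read 0.94 to 1.69 CPM and Stat3 36.5 to 39.2 CPM, each library above every WT library. TCKO against CKO did not pass for Spi1 (1.04, edgeR adjusted p = 0.118) or Stat3 (0.33, adjusted p = 0.226). Neither passed in CKO against WT (adjusted p = 0.451 and 0.382). Irf8 in CKO overlapped WT, at 4.26 to 5.99 CPM.

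Promoters of some rising genes hold letters that PU.1 and its partners are known to bind. Some of them are shown as a description, and no link to the Spi1 and Irf8 rises was tested. Each line is the 250 bases before the RefSeq start on GRCm38.p6, read 5′ to 3′ on the gene's strand, with the match in capitals. The motifs searched on both strands were GAGGAAGT (PU.1), a composite of PU.1 and an interferon regulatory factor (GGAA and GAAA with NN, any 2 bases, between them) and an interferon-stimulated response element (GAAA and GAAA with NN between them). The last of these can overlap one another and the composite.
C1qc: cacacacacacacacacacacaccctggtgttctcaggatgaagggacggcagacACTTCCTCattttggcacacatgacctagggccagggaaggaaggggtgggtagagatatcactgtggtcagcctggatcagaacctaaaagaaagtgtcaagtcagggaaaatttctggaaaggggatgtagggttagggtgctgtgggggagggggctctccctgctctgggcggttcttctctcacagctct
Mmp12: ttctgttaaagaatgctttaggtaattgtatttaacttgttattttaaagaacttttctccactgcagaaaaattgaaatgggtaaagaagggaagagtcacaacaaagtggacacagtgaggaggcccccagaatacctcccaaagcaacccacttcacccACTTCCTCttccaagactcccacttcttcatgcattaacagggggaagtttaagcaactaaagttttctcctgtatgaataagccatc
Clec7a: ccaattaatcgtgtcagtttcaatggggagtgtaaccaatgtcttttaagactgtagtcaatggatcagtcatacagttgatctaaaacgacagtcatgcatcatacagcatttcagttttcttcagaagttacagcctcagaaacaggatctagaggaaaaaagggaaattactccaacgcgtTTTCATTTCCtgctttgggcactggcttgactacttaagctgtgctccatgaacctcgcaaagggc
Pdcd1: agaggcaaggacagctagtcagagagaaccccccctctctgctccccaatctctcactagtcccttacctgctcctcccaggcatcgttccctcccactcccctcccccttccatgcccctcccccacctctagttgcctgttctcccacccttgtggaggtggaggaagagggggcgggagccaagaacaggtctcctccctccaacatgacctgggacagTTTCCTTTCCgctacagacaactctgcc
Gbp2b: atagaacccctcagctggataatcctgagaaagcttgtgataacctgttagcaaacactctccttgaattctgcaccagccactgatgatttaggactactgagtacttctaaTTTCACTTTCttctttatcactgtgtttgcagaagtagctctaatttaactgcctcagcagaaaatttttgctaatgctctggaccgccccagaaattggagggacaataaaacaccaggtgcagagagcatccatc
These lie at chr4:136892915-136893164 on the minus strand for C1qc, chr9:7344147-7344396 on the plus strand for Mmp12, chr6:129472780-129473029 on the minus strand for Clec7a, chr1:94052554-94052803 on the minus strand for Pdcd1 and chr3:142594597-142594846 on the plus strand for Gbp2b. The PU.1 letters begin 195 bases before the start in C1qc and 88 bases before it in Mmp12. The composite begins 66 bases before the start in Clec7a and 28 in Pdcd1, and the response element 137 bases before it in Gbp2b. Each match is on the reverse of the printed strand. Another Mmp12 promoter, at chr9:7347124-7347373, held none of the motifs. The match in Slamf9, on the gene's own strand and 8 bases before the start, is not printed. Of the 34 rises, 22 had a RefSeq promoter in the table, and 3 of these (C1qc, Mmp12 and Slamf9) held the PU.1 letters, 2 the composite and 1 the response element. Counted the same way, 2.79%, 2.68% and 3.46% of all 27025 genes held them in a promoter of this length, as did 2.44%, 2.30% and 2.98% of the 32851 promoters. A match is a description of the letters only.

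Complement began with C1q, the recognition subunit of the classical pathway, which microglia make in brain. C1qa read 18.6, 28.0, 29.9 and 21.6 CPM in WT and 63.4, 64.0, 62.8 and 38.2 CPM in TCKO, so replicates 2, 3 and 4 lay together and replicate 5 lower but still above WT. Its log2 fold change was 1.22 ± 0.18 (edgeR adjusted p = 0.0119). C1qc read 15.2, 24.1, 26.0 and 18.9 CPM in WT and 54.8, 57.4, 52.6 and 32.6 CPM in TCKO, a change of 1.23 ± 0.20 (adjusted p = 0.0187). The third chain, C1qb, averaged 121.1 CPM in WT and 237.7 CPM in TCKO with overlapping libraries (0.97 ± 0.21, adjusted p = 0.0669). Of 15 complement genes, C1qa and C1qc passed and 13 did not, and the median was 0.89 in TCKO against WT and 2.94 in T against WT, beside 0.02 over all genes in the former. The mean log2 level of the list, relative to the WT mean, was 1.09, 1.11, 0.23 and -0.19 in TCKO replicates 2, 3, 4 and 5. The WT libraries lay between -0.31 and 0.34, so replicates 4 and 5 fell inside their range. C4b (1.57 ± 0.37, adjusted p = 0.0905) and C3 (1.56 ± 0.77, adjusted p = 0.354) were among those that did not pass.

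The remaining microglial rises covered chemokine, receptor and cytoskeletal genes. Ccl4, a chemokine that attracts lymphocytes and monocytes, read 0.65, 0.68, 0.43 and 0.04 CPM in WT and 6.42, 6.12, 2.0 and 1.21 CPM in TCKO (3.10 ± 0.56, edgeR adjusted p = 0.0273). Hvcn1, the voltage-gated proton channel that sustains the phagocyte oxidase, read 1.65, 3.06, 1.66 and 2.54 CPM in WT and 9.11, 5.39, 4.67 and 5.23 CPM in TCKO (1.45 ± 0.25, adjusted p = 0.0229). Slamf9, a SLAM family receptor of myeloid cells, had a log2 fold change of 1.63 ± 0.31 (adjusted p = 0.0394). In these genes replicate 2 was the highest TCKO library, and the groups did not overlap. Capg, an actin filament capping protein, had a change of 1.42 ± 0.28 (adjusted p = 0.0482), Unc93b1, which carries nucleic acid sensing Toll-like receptors to endosomes, 1.01 ± 0.20 (0.0434), and Csf2ra, the GM-CSF receptor alpha chain, 0.99 ± 0.18 (0.0259).

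Some rises were even across the 4 TCKO libraries. Bin2, a membrane-shaping protein of leukocytes, read 12.1, 12.3, 10.8 and 10.4 CPM in TCKO against 4.58 to 7.24 CPM in WT (0.94 ± 0.17, edgeR adjusted p = 0.0273). Abi3, an actin regulator of microglia, read 15.8, 14.2, 13.9 and 14.7 CPM against 8.33 to 10.6 CPM (0.62 ± 0.11, adjusted p = 0.0255). Selplg, the P-selectin ligand PSGL-1 and a homeostatic microglia marker, read 44.6, 43.8, 47.4 and 43.2 CPM against 25.5 to 33.9 CPM (0.61 ± 0.12, adjusted p = 0.0364). Selplg in TCKO was near T, where it read 41.9 to 54.6 CPM, and the difference from T was -0.11 on the log2 scale (adjusted p = 0.56).

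**Figure D3:**
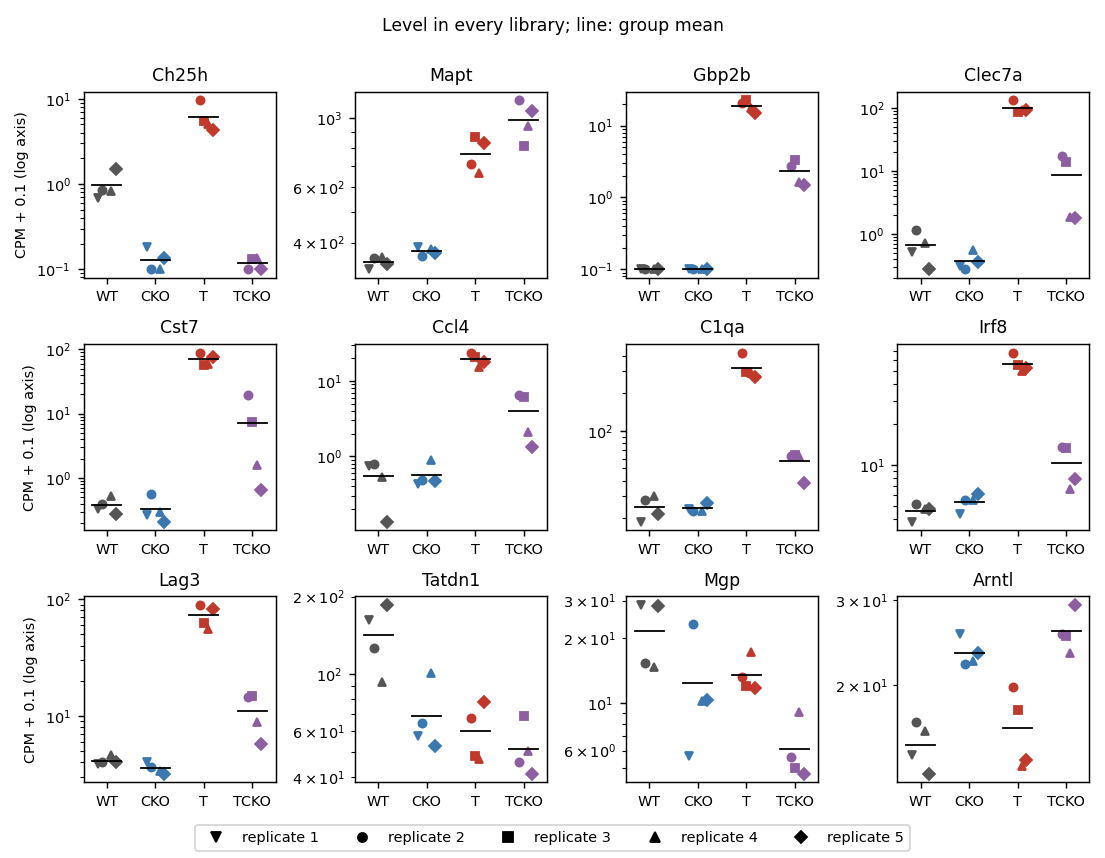
CPM plus 0.1 of 12 genes in every library (log vertical axis), grouped by genotype, with 1 point per library, marker shape for the replicate number and a line at the group mean. Cst7 spreads from 0.55 to 19.3 CPM among the 4 TCKO libraries, while Mapt sits between 812.3 and 1138 CPM, above all WT libraries.

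Read as whole lists, the glial programmes had medians between WT and T, while some TCKO libraries scored within the WT range. In TCKO against WT, 2 of 24 disease-associated microglia genes passed as higher (Cst7 and Clec7a) and 22 of 24 had a positive fold, with a median log2 fold change of 0.73, against 2.69 in T against WT, where 22 of 24 passed. The mean log2 level of this list, relative to the WT mean, was 1.66, 1.35, 0.50 and 0.00 in TCKO replicates 2, 3, 4 and 5, between -0.25 and 0.19 in WT and between 2.87 and 3.56 in T. Itgax had a log2 fold change of 4.12 ± 0.91 (edgeR adjusted p = 0.0731) and Ccl6 one of 1.90 ± 0.42 (adjusted p = 0.072), the members nearest to the threshold among the rest. Of 16 homeostatic microglia genes only Selplg passed by edgeR, and the median was 0.38. The score of this list was 0.57, 0.41, 0.07 and 0.08 in TCKO replicates 2, 3, 4 and 5 and between -0.13 and 0.12 in WT. Csf1r, the growth factor receptor that microglia need to survive, averaged 69.1 CPM in WT and 109.2 CPM in TCKO with separate libraries but did not pass (0.66 ± 0.15, adjusted p = 0.0798).

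Interferon-stimulated genes did not share this intermediate position. None of the 25 passed in TCKO against WT by edgeR (3 had an unadjusted p under 0.05, 2 higher and 1 lower), 8 of 25 had a positive fold, and the median was -0.08, against 3.06 in T, where all 25 passed as higher. The list score was -0.11, 0.57, -0.36 and -0.68 in TCKO replicates 2 to 5, between -0.55 and 0.35 in WT and between 2.62 and 3.46 in T. Ifit1, an RNA-binding antiviral protein, averaged 13.5 CPM in WT, 7.80 CPM in TCKO and 106.8 CPM in T (-0.78 ± 0.46 in TCKO against WT, adjusted p = 0.438).

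Gbp2b, a guanylate-binding GTPase that interferon induces and no member of that list, behaved otherwise. It had 0 reads in all 4 WT libraries and 61, 103, 41 and 35 reads in TCKO replicates 2, 3, 4 and 5 (edgeR adjusted p = 0.000352). This is at least 90.1-fold higher in TCKO, taking a floor of 3 reads over the WT group. The 4 CKO libraries were also at 0, and the T libraries read 15.1 to 22.5 CPM against 1.37 to 3.26 CPM in TCKO. Its relatives Gbp2 (0.64 ± 0.30, adjusted p = 0.326) and Gbp3 (0.93 ± 0.28, adjusted p = 0.158) did not pass. How reads were divided among these close paralogs was not tested.

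Reactive astrocyte genes, like the microglial programme, had a median between WT and T. Their list score was 1.53, 1.10, 0.29 and -0.03 in TCKO replicates 2, 3, 4 and 5. It lay between -0.42 and 0.36 in WT and between 2.74 and 3.65 in T, so TCKO replicates 4 and 5 fell inside the WT range. Of the 24, Stat3 alone passed by edgeR, 20 had a positive fold, 13 had an unadjusted p under 0.05, and the median was 0.82 against 3.27 in T. Gfap, the astrocyte intermediate filament, averaged 642.7 CPM in WT, 1641 CPM in TCKO and 6533 CPM in T, and its change from WT to TCKO (1.35 ± 0.32) had an adjusted p of 0.0905. None of 16 antigen presentation genes (median 0.43), 21 lysosome genes (0.26), 22 liver X receptor and sterol export genes (0.28) or 25 cholesterol synthesis and uptake genes (-0.12) passed, with unadjusted p under 0.05 in 7, 10, 11 and 3 of them. In T against WT the last list had a median of -0.70 and 20 of its 25 genes were lower.

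**Figure D4:**
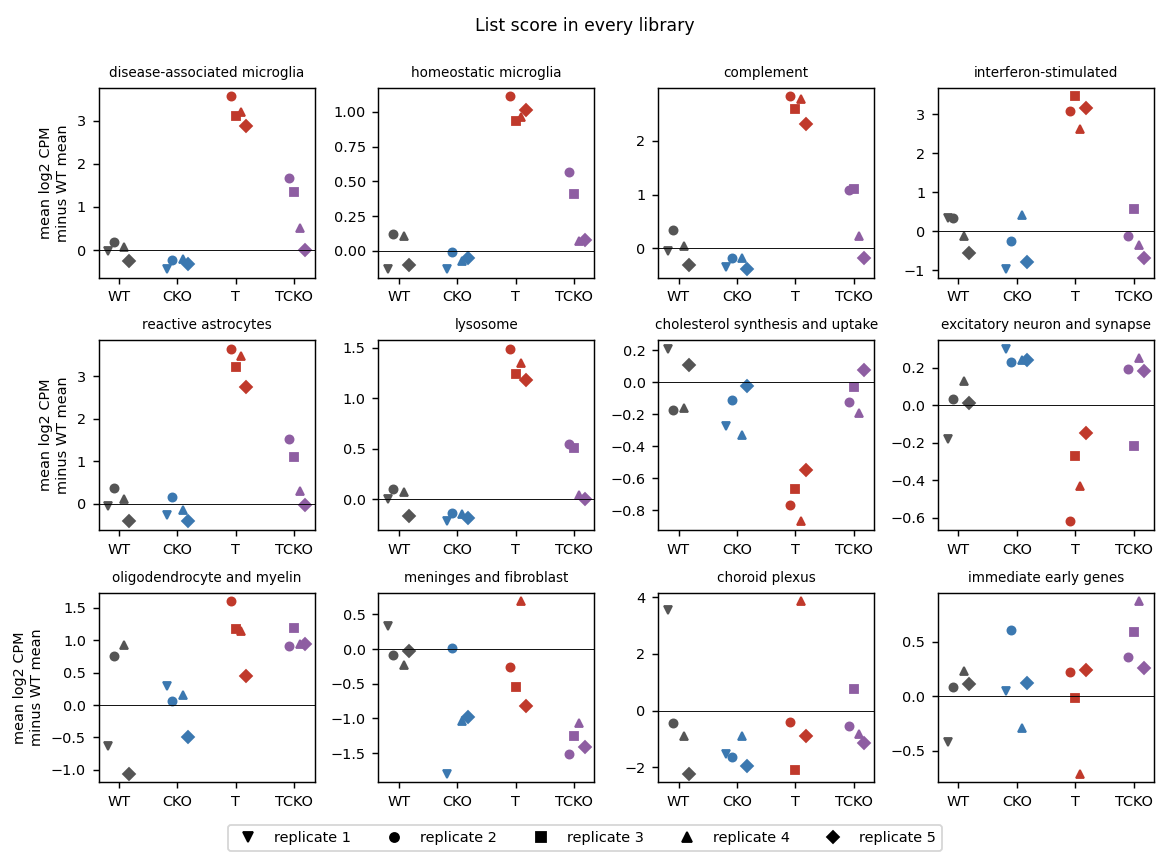
Mean log2 level of each gene list relative to the WT mean, 1 point per library, by genotype. For the disease-associated microglia list TCKO replicates 2, 3 and 4 lie above WT and replicate 5 within its range, while the interferon-stimulated list overlaps WT.

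Neuronal lists held no call. None of 18 excitatory neuron and synapse genes passed in TCKO against WT by edgeR, with 2 at an unadjusted p under 0.05, and the median was 0.11. None of 16 subfield neuron genes or 12 inhibitory neuron genes passed either, with 4 and 1 at an unadjusted p under 0.05. Immediate early genes, which firing neurons switch on, had a median of 0.48 with 16 of 18 positive, and 5 of 18 had separate libraries with TCKO higher (the background share is 3.14%). Arc, a synaptic plasticity gene of this kind, averaged 155.5 CPM in WT and 333.4 CPM in TCKO (1.10 ± 0.41, adjusted p = 0.23), and Junb 11.1 and 24.1 CPM (1.12 ± 0.29, adjusted p = 0.107).

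A pair of rises at little-expressed loci stood level with T. The lincRNA 4930590L14Rik (chr3:140951876-140953247) had 0 reads in WT and 78 in the 4 TCKO libraries, at least 29.3-fold higher over the same floor, and read 0.63 to 0.95 CPM in TCKO and 0.19 to 0.97 CPM in T (edgeR adjusted p = 0.0173 against WT and 0.635 against T). Gbp2b begins 1.643 Mb from it on the same chromosome, and of 51 genes tested within 5 Mb of 4930590L14Rik, Gbp2b and the falling pseudogene Rpl36a-ps2 passed. Lamr1-ps1, a processed pseudogene 4968 bases from Prnp on chromosome 2, had 2 reads in WT and 108 in TCKO, a ratio of 60.8 with a 95% counting interval of 16.4 to 509 (adjusted p = 0.0173). Lamr1-ps1 read 0 CPM in every CKO library, 0.48 to 0.81 CPM in T and 0.38 to 1.48 CPM in TCKO. Reads of pseudogenes are uncertain, since their parent genes share sequence with them. Whether parent reads or reads of the transgene's promoter construct fall on this model was not tested. The 4930590L14Rik and Lamr1-ps1 calls ended without WT replicate 1, WT replicate 5 or TCKO replicate 2.

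A further 10 genes, outside the groups described so far and apart from Gm34299, rose with log2 fold changes of 0.54 to 1.21. Arntl, which encodes the clock activator BMAL1, read 14.2, 16.6, 15.95 and 12.99 CPM in WT and 25.5, 25.1, 23.2 and 29.2 CPM in TCKO, a log2 fold change of 0.78 ± 0.13 (edgeR adjusted p = 0.0193). It was 0.67 higher than in T (adjusted p = 0.00253), and the CKO libraries read 22.0 to 25.4 CPM. Akt2, a kinase of insulin signalling, read 55.1 to 85.8 CPM in WT and 101 to 121 CPM in TCKO (0.63 ± 0.13, adjusted p = 0.0482) and was also higher than in T. Wipi1, a phosphoinositide-binding protein of early autophagosomes, read 11.3 to 14.5 CPM in WT and 20.2 to 22.6 CPM in TCKO (0.67 ± 0.12, adjusted p = 0.0273), and its difference from T was -0.02 (adjusted p = 0.936). Adamts1, a metalloproteinase that cleaves proteoglycans of the matrix, had a change of 0.82 ± 0.16 (adjusted p = 0.0482), and S100a16, a calcium-binding protein, 0.59 ± 0.10 (0.0231). Cela1, a serine elastase, changed by 1.21 ± 0.23 (0.0376), Plekho1 by 0.77 ± 0.15 (0.0376), the dynein partner Nudc by 0.61 ± 0.12 (0.049) and the sorting nexin Snx15 by 0.54 ± 0.11 (0.0476). All 10 of these genes, Stat3 included, missed the threshold when WT replicate 1, WT replicate 5 or TCKO replicate 2 was left out.

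Chromosome 19, which carries Ch25h, held 7 of the 56 called genes among its 602 tested (1.16%, against 0.302% of all genes): Ch25h, Ide, Golga7b, Gm34299, Snx15, Unc93b1 and Csf2ra. The count includes the targeted gene itself. Snx15, Unc93b1 and Csf2ra begin at positions 6119399, 3935186 and 61223957, far from Ch25h at 34473778. Unc93b1 and Csf2ra are microglial rises that were also higher in T than in WT, by 2.75 and 2.70 on the log2 scale. In CKO, Csf2ra read 3.32 to 4.12 CPM, above every WT library (2.26 to 2.88 CPM), and Unc93b1 overlapped WT. TCKO against CKO passed for Unc93b1 (0.94, edgeR adjusted p = 0.045) and not for Csf2ra (0.41, adjusted p = 0.231). Ide, the insulin-degrading enzyme, which also cleaves amyloid beta, read 39.2, 75.5, 76.4 and 65.2 CPM in WT and 38.8, 38.6, 33.7 and 33.7 CPM in TCKO (-0.82 ± 0.15, edgeR adjusted p = 0.0336). WT replicate 1 lay just above the TCKO libraries, and the T and CKO libraries read 41.2 to 44.6 and 35.5 to 40.7 CPM. Ide begins 2.795 Mb from Ch25h and was the called gene among the 61 tested within 5 Mb of it. Golga7b, an accessory protein of palmitoyltransferases 7.774 Mb away, read 178.9, 157.2, 154.1 and 201.8 CPM in WT and 45.5, 53.6, 101.8 and 55.3 CPM in TCKO (-1.43 ± 0.24, adjusted p = 0.0193). Its change was -1.73 in CKO (adjusted p = 0.0192) and -0.76 in T (adjusted p = 0.026). Gm34299, which lies within Crtac1 on the opposite strand, read 0 to 0.18 CPM in WT, 0.48 to 3.08 CPM in TCKO and 0.66 to 1.68 CPM in CKO (4.03 ± 0.76 in TCKO, adjusted p = 0.0344). Of Ide, Golga7b and Gm34299, none passed without WT replicate 5, TCKO replicate 2 or TCKO replicate 3.

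The falls were led in number by short transcripts. Median gene length, as deposited, was 390 bases for the 22 genes that fell, 1773 for the 34 that rose and 2376 for all genes tested, and 14 of the 22 (63.6%) were under 1000 bases, against 13% of all. mt-Atp8, a subunit of mitochondrial ATP synthase, read 752.7, 742.1, 782.7 and 838.3 CPM in WT and 488.6, 494.8, 374.3 and 470.6 CPM in TCKO (-0.77 ± 0.11, edgeR adjusted p = 0.00646). mt-Nd4l, a subunit of respiratory complex I, read 303.8, 279.6, 286.6 and 318.1 CPM in WT and 196.1, 197, 185.9 and 193 CPM in TCKO (-0.62 ± 0.08, adjusted p = 0.0043). Both pairs of groups were far apart relative to their spread. The tRNA genes mt-Tq (-1.46 ± 0.22) and mt-Tv (-1.20 ± 0.22) fell as well, and mt-Atp8 and mt-Nd4l overlap mt-Atp6 and mt-Nd4, so how reads were assigned there bears on them.

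Nuclear members of this kind were the ATP synthase subunit Atp5k (-0.55 ± 0.11, edgeR adjusted p = 0.049), the ribosomal protein gene Rps21 (-0.48 ± 0.09, adjusted p = 0.0427), and the pseudogene or pseudogene-like models Rpl17-ps8, Rpl36a-ps2, Rpl37rt, Gm12338, Gm5829 and Gm10076, with Mir6236. Beyond the calls, 74 of 78 ribosomal protein genes had a negative fold in TCKO against WT (median -0.15), and 29 of the 78 had separate libraries with TCKO lower (the background share is 4.33%). All 13 mitochondrial protein genes were negative (median -0.25). In CKO against WT the same medians were -0.21 and -0.34, and all 13 genes of the short group had a negative fold there, with the WT libraries shared. In T against WT the ribosomal and mitochondrial medians were 0.03 and -0.13. The short group had a median of -0.75 in TCKO, -0.45 in T and -0.51 in CKO, so its fall was not particular to TCKO. In T, mt-Atp8 (-0.44, edgeR adjusted p = 0.00775) and mt-Nd4l (-0.39, 0.00291) passed as lower, and Rpl36a-ps2 (-0.01, 0.964) did not. The mitochondrial read share moved with these falls, and its part in them was not tested. With the mitochondrial genes left out, 42 genes passed, 11 of them lower. Of the 13 short genes only mt-Atp8 and mt-Nd4l passed without WT replicate 5 or TCKO replicate 2, and 4 or 5 passed without WT replicate 1, 2 or 4 or TCKO replicate 3.

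**Figure D5:**
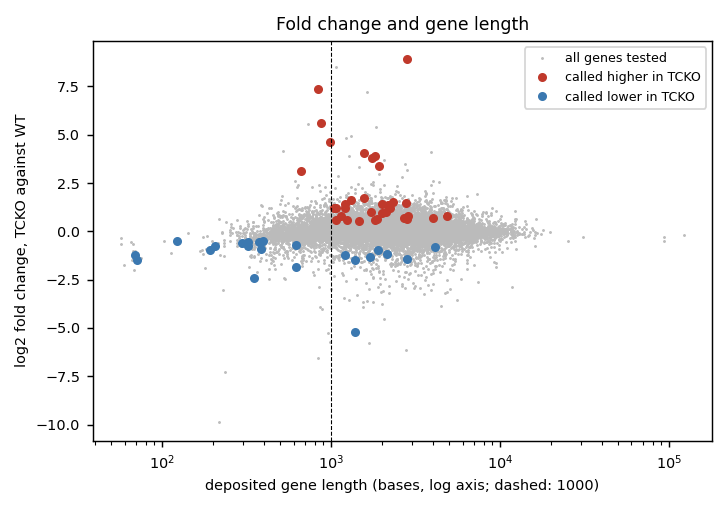
Log2 fold change of TCKO against WT (vertical axis) by deposited gene length in bases (log horizontal axis), with the genes that passed marked. The 22 falls gather at short lengths, with a median of 390 bases, and the 34 rises do not.

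Outside the short group and chromosome 19, 6 further genes fell. Tatdn1, a TatD-family deoxyribonuclease, read 162.1, 126.7, 93.4 and 185.6 CPM in WT and 45.4, 68.8, 50.3 and 40.9 CPM in TCKO (-1.47 ± 0.25, edgeR adjusted p = 0.0225), and 46.8 to 78.1 CPM in T. Lrrc17, a secreted leucine-rich repeat protein, read 56.2, 44.1, 32.9 and 60.0 CPM in WT and 16.6, 29.4, 21.8 and 16.6 CPM in TCKO (-1.19 ± 0.23, adjusted p = 0.0345). Tsc22d3, a glucocorticoid-induced leucine zipper protein, read 223.4, 214.4, 242.3 and 286.9 CPM in WT and 91.3, 157, 135.5 and 121.7 CPM in TCKO (-0.94 ± 0.19, adjusted p = 0.049). In these genes the differences from T did not pass. The 2 unnamed models Gm26549 and Gm50024 changed by -1.20 and -1.33. With Mgp, the 6 genes had a median log2 fold change of -1.27 in TCKO, -1.16 in T and -1.13 in CKO, against the same WT libraries. All 6 had a negative fold in CKO, where none of them passed by edgeR. None of these 6 genes, counting Mgp (617 bases long and so also under 1000), passed without WT replicate 1, WT replicate 5 or TCKO replicate 2. Tatdn1 overlaps Rnf139 and Lrrc17 overlaps Fbxl13 on the opposite strand, as Hvcn1 does Tctn1, Abi3 does Gngt2 and Stat3 does Stat5a. No source used here says whether counting used strand, so reads from such partners cannot be told apart.

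Mgp, matrix Gla protein, an inhibitor of calcification made by fibroblasts and vessel walls, read 28.6, 15.3, 14.6 and 28.1 CPM in WT and 5.51, 4.88, 8.93 and 4.57 CPM in TCKO (-1.86 ± 0.36, edgeR adjusted p = 0.0434). It was lower than in T as well (-1.17, adjusted p = 0.0415). The meninges and fibroblast list lay low with it: none of its 12 genes passed by edgeR (8 had an unadjusted p under 0.05, all lower), but all 12 had a negative fold, 8 had separate libraries with TCKO lower, and the median was -1.31. Dcn, decorin of fibroblasts, averaged 161.4 CPM in WT and 12.8 CPM in TCKO (-3.66 ± 0.92, adjusted p = 0.103). The list score was -1.52 to -1.06 in TCKO and -0.23 to 0.33 in WT, and the part of meningeal tissue in the Mgp result was not tested.

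Lists of the other cell types the dissection could hold had no call. The 14 oligodendrocyte and myelin genes were all positive (median 0.71), but the WT scores for this list were -0.63, 0.75, 0.93 and -1.06, so the TCKO scores of 0.91 to 1.18 stood close to WT replicates 2 and 4. Endothelial and pericyte genes had a median of -0.11 and astrocyte identity genes one of 0.05. Choroid plexus genes had a median of -1.95, set by WT replicate 1, without which it was 0.69. The border macrophage and monocyte list had a median of -0.56, and 5 of its 12 genes had a positive fold. In 4 of the 12, every TCKO library was lower than any WT library. Among these 4 were Cd163 (-2.09 ± 0.50, edgeR adjusted p = 0.0951) and Pf4 (-1.48 ± 0.43, adjusted p = 0.145).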

How the data were processed

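Gene-level tables were deposited for 16 hippocampal RNA-seq libraries, 4 each of WT, CKO, T and TCKO, with 15064258 to 34348225 assigned reads. Per the file headers, the deposited tables hold estimated counts and TPM for each gene. Of the authors' estimated counts above 0, 74.53% are whole; all were rounded to whole numbers here, and the deposited TPM, a level per transcript length, was used only as a description. The submitters' processing notes name bcl2fastq, STAR 2.5.1a, Subread, featureCounts 1.4.6-p5 and the build GRCm38, with no roles; which program made the estimated counts was left unstated by every source at hand. No source names molecular identifiers, and intervals on read ratios (95%, exact) and the floor of 3 reads cover counting error only.

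Counts of all 16 libraries entered 1 edgeR 4.0.16 quasi-likelihood fit (R 4.3.3, TMM factors, filterByExpr) with a mean per genotype, so that all groups share the estimate of spread, and contrasts were adjusted by the Benjamini-Hochberg method over 18565 genes at 0.05. The script was tested on simulated data. CPM are TMM-scaled, and log2 CPM for distances and list scores carried a prior count of 2. A list score is the mean over members of log2 CPM minus the WT mean. DESeq2 1.42.0 and limma 3.58.1 voom were alternatives, with other factors, filters, samples and a gene length bound of 1000 bases, the last chosen after seeing the data.

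The comparison and the 29 gene lists were chosen with earlier results of these data known. The rule for named genes took the 12 called genes with the highest and the 12 with the lowest fold among those reaching 1 CPM with separate libraries (unnamed models, pseudogenes, ribosomal and mitochondrial genes left out), the 3 targeted or transgene-linked genes, up to 4 called members of each list, and genes near T in TCKO with at least 2-fold change from WT. Other called genes are named beyond that rule, after their values were seen, as are list members that missed the threshold. Tnf, Il6, Sprr1a and Gzmb were too low to test. Gene positions are from GENCODE M21 and promoters from RefSeq, both on GRCm38.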

Additional observations from a re-analysis of the deposited data

Results flagged for a closer look

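In groups of 4 libraries, 1 library was singled out where its gap to the nearest of the others made up most of the group's range (Dixon's criterion), which chance gives in about 5% of groups. Of 170 groups examined, 8 were so marked. Hvcn1 read 9.108 CPM in TCKO replicate 2 and 4.671 to 5.386 CPM in the other 3. C1qa read 38.16 CPM in TCKO replicate 5 and 62.76 to 63.97 CPM in the others. Adamts1 read 13.14 CPM in WT replicate 4 and 9.215 to 9.523 CPM in the other WT libraries. The pseudogene Lamr1-ps1 read 0.072 CPM in WT replicate 4 and 0 in the other 3. TCKO replicate 3 was marked in 4 list scores. Its excitatory neuron and synapse score was -0.22 (others 0.18 to 0.25), its hippocampal subfield neuron score -0.44 (0.21 to 0.33), its oligodendrocyte and myelin score 1.18 (0.91 to 0.94) and its fatty acid and lipid droplet score 0.2 (-0.1 to -0.05). These values are given without an explanation.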

How the results depend on the processing

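The 56 calls (34 higher, 22 lower) moved widely with the processing. DESeq2 gave 499 (299 higher, 200 lower), limma voom 25 (12, 13), no filter on low counts 100 (64, 36), a fit of the 8 WT and TCKO libraries alone 16 (4, 12), a minimum fold of 1.5 gave 6 (5, 1), and leaving out the choroid-rich WT replicate 1 and T replicate 4 gave 12 (4, 8). Genes with a model of at least 1000 bases, an alternative added after seeing the data, gave 29 (22, 7), and without mitochondrial genes 11 were lower. Leaving out 1 library at a time gave 6 to 67 changed, 3 to 54 higher and 3 to 24 lower genes. RLE or upper quartile factors and a 1 CPM filter kept each count within 1.5 times. With the replicate number as a block 3 genes passed (3 higher, 0 lower: Gbp2b, Mapt and Prnp); the numbers were not treated as pairs, since same-numbered WT and TCKO libraries did not all deviate together (r = -0.048, 0.025 and 0.135 for numbers 2, 4 and 5). Of 1091 combinations of a called gene and a setting, 557 were past the threshold, 534 kept the sign without passing and 0 reversed. All 56 genes had separate WT and TCKO libraries, so a reversal was hardly possible and its absence says little. The causes of these shifts were not tested. The distance between the groups did not pass in any setting (exact permutation p = 0.0571 to 0.4857). Of 580 list medians under alternatives 20 moved beyond the spread, among them choroid plexus, -1.95 overall and 0.69 without WT replicate 1. Few reads limit Cst7, Mmp12, Pdcd1, Gm5829 and the T cell genes, whose WT levels lie under about 1 CPM. The same holds for the mean WT levels of Clec7a, Ccl4, Spi1, Gm34299, Gbp2b, Lamr1-ps1, 4930590L14Rik and Ch25h.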

Other observations

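Clock genes were looked at after Arntl had been found among the rises. Per2, a repressor of the clock, averaged 12.1 CPM in WT and 7.20 CPM in TCKO with separate libraries, a log2 fold change of -0.74 (edgeR adjusted p = 0.0856), and Ciart, another repressor, had one of -0.73 with separate libraries (adjusted p = 0.293). The Per2 fall was not particular to TCKO: Per2 averaged 6.42 CPM in T (-0.91 against WT, adjusted p = 0.00127) and 13.2 CPM in CKO. Arntl instead averaged 16.2 CPM in T and 23.25 CPM in CKO. Of the 15 clock genes looked at, Arntl alone passed by edgeR and 12 had overlapping libraries, among them the repressors Per1 (0.07), Cry2 (0.15) and Nr1d1 (0.00). Clock, the partner of BMAL1, read 42.5 to 44.1 CPM in WT and 36.8 to 44.5 CPM in TCKO. Hours of tissue collection were not analysed here.

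Cell cycle genes had a positive list score in every TCKO library, 0.23 to 0.74, against -0.13 to 0.12 in WT, and 0 of the 14 passed by edgeR (3 had an unadjusted p under 0.05). The liver X receptor and sterol export score was likewise 0.19 to 0.34 in TCKO and -0.11 to 0.18 in WT. Within that list Gpr183, the receptor for the oxysterol that Ch25h and Cyp7b1 make together, averaged 3.61 CPM in WT and 6.25 CPM in TCKO (0.79 ± 0.26, edgeR adjusted p = 0.177), and Cyp7b1 31.6 and 32.4 CPM (0.03 ± 0.19, adjusted p = 0.956).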
